A study of Mus musculus with 2 samples.

Results

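Leukotrienes and prostaglandins are lipid signals made from arachidonic acid. The 9 genes described here encode some of the enzymes of both routes, another lipoxygenase, an activating protein and 1 receptor. They were read in BM LSKs, the lineage-negative Sca1-positive c-Kit-positive stem and progenitor cells of the bone marrow. The genes were Alox5, Alox5ap, Lta4h, Ltc4s, Alox12, Ptgs1, Ptgs2, Hpgds and Ptger4. They were found by their symbols, and each matched 1 of the 34745 genes in the tables. The RNA came from C57BL/6 mice that carried both transgenes, Scl/tTA and BCR/ABL (BA), in a tet-off arrangement in which doxycycline keeps BA silent. The week-0 library was the control, from mice kept on doxycycline, and the week-3 library was taken 3 weeks after BA expression had been induced by withdrawing the drug. Each library held the LSKs of 3 mice mixed together, so there was 1 library per time point and no replicate. The Scl element drives BA in stem and progenitor cells, and a reporter line with the same driver labelled only a part of the LSKs. Ages and sexes of the mice are not given in the sources used here. Without replicates no test between time points was possible. All intervals given here are exact 95% intervals that cover counting error only, and none of them covers the spread between mice.

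In the leukotriene route, 5-lipoxygenase (Alox5) works with its activating protein FLAP (Alox5ap) to turn arachidonic acid into leukotriene A4. Leukotriene A4 hydrolase (Lta4h) then makes leukotriene B4, a neutrophil attractant, and leukotriene C4 synthase (Ltc4s) makes the first of the cysteinyl leukotrienes. In the prostaglandin route the cyclooxygenases Ptgs1 and Ptgs2 make prostaglandin H2, from which synthases such as Hpgds make single prostaglandins, and Ptger4 encodes the EP4 receptor of prostaglandin E2. Prostaglandin E2 is known to act on blood stem and progenitor cells, and mouse models of BCR/ABL leukemia without Alox5 are known to have impaired leukemic stem cells.

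Alox5 was higher and Ptgs2 and Ptger4 were lower at week-3. The level of Alox5 was 0.446 FPKM at week-0 and 4.93 FPKM at week-3, where FPKM is the fragment count scaled by exon length and by the total reads of the library. Ptgs2 was at 8.48 FPKM at week-0 and 0.493 FPKM at week-3. Ptger4 was at 9.50 and 2.61 FPKM. The leukotriene genes Alox5ap and Lta4h differed by less than 2-fold, as did Ltc4s, Ptgs1 and Hpgds, and Alox12 had hardly any reads. A gene was called when its FPKM ratio was at least 2 or at most 0.5 and it had at least 20 reads over both libraries. Of the 9 genes 8 had that many reads, of which 1 was called higher, 2 lower and 5 neither. Over the 12192 genes with that many reads in the whole tables, 10.6% were called higher and 15.6% lower. The median log2 ratio of the 8 genes was -0.39, and that of all 12192 genes was 0.07.

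**Figure D1:**
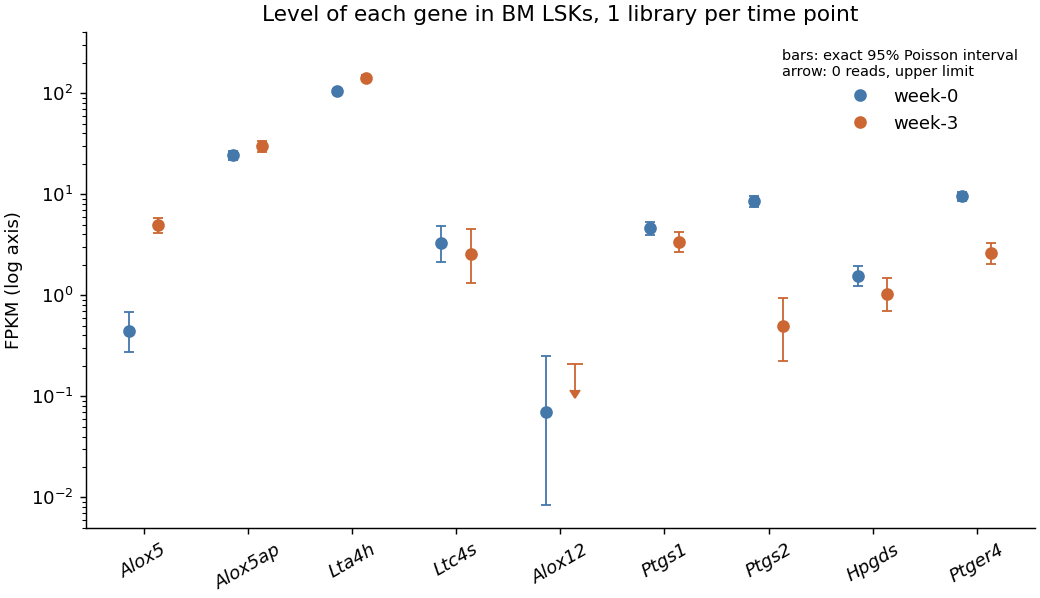
Level of each of the 9 genes in FPKM on a log axis, with the week-0 library in blue and the week-3 library in orange. Bars are exact 95% Poisson intervals of the read count, and the arrow marks the upper limit of 0.211 FPKM for Alox12, which had 0 reads at week-3. Alox5 lies higher at week-3, and Ptgs2 and Ptger4 lie lower.

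The depth behind these values was 6356164 reads on genes at week-0 and 3886695 at week-3. A count of 0 allows up to 3 reads. For the sorted identity 12 stem and progenitor markers were read. All 12 had at least 20 reads, which does not by itself establish that identity. The counting interval of the ratio of week-3 to week-0 lay below 1 for 8 of them and above 1 for 2. Over all genes with that many reads it lay below 1 for 28.5% and above 1 for 34.0%. The sorting markers Kit (16.9 and 11.5 FPKM) and Ly6a, which encodes Sca1 (19.8 and 14.8 FPKM), were present at both time points. Genes of mature lineages were present too. In bulk RNA, fewer cells of a type and less RNA per cell cannot be told apart. The time points also differed in the marker lists given with the results, and their part in any member's difference was not tested.

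Alox5 (ENSMUSG00000025701) spans positions 116410077 to 116461178 of chromosome 6 in GRCm38, on the minus strand, and no other annotated gene shares its exons. It had 21 reads at week-0 against 142 at week-3. On the FPKM scale that was 0.446 (0.276 to 0.682) and 4.93 (4.16 to 5.81), so the intervals did not overlap. The week-3 level was 11.1-fold higher, a log2 ratio of 3.47 with an interval of 2.80 to 4.20. This ratio was above that of 99.5% of the genes with at least 20 reads. At week-0 Alox5 stood low among those genes, above 5.47% of them, and at week-3 it stood above 53.8%. Among the 9 genes it ranked 8 by FPKM at week-0 and 3 at week-3.

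Alox5ap (ENSMUSG00000060063; plus strand of chromosome 5, 149264767 to 149288153) encodes FLAP, the membrane protein that presents arachidonic acid to 5-lipoxygenase. It had 342 reads at week-0 against 258 at week-3, or 24.2 FPKM (21.7 to 26.9) and 29.8 FPKM (26.3 to 33.7). The week-3 level was 1.23-fold higher, with a log2 interval of 0.06 to 0.54. Under TMM scaling the interval was -0.05 to 0.43 and under median-of-ratios scaling -0.03 to 0.45, so that a ratio of 1 lay inside both. FLAP transcript was present at both time points, at levels above 84.3% and 86.5% of the genes with at least 20 reads. Its FPKM was 54.1 times that of Alox5 at week-0 (34.9 to 88.6) and 6.04 times at week-3 (4.90 to 7.47).

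Lta4h (ENSMUSG00000015889; plus strand of chromosome 10, 93453396 to 93484896) had the most reads of the 9 genes, 1367 at week-0 and 1142 at week-3. Its level was 104 FPKM (98.7 to 110) at week-0 and 142 FPKM (134 to 151) at week-3, the highest of the 9 at both time points. The log2 ratio was 0.45 (0.34 to 0.56), which is 1.37-fold higher and short of the 2-fold limit. Ltc4s (ENSMUSG00000020377; minus strand of chromosome 11, 50236469 to 50238616) was low, with 25 reads at week-0 against 12 at week-3, or 3.28 FPKM (2.13 to 4.85) and 2.58 FPKM (1.33 to 4.50). Its log2 ratio was -0.35 with an interval from -1.48 to 0.70, so no direction was detectable at this depth. Its value is also uncertain because 268 of its exon bases lie opposite the antisense gene Gm26542, listed with 27 and 11 reads, and the library kit does not mark strand.

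Alox12 (ENSMUSG00000000320; minus strand of chromosome 11, 70241457 to 70255353), the platelet-type lipoxygenase, had 2 reads at week-0 against 0 at week-3. Both are within the 3 reads that a count of 0 allows, so no ratio is given. Its level was 0.070 FPKM at week-0 and at most 0.211 FPKM at week-3 by the upper Poisson limit. Transcripts of this lipoxygenase were close to the limit of detection at both time points, while those of Alox5 were well above it at week-3.

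Ptgs2 (ENSMUSG00000032487) lies on the plus strand of chromosome 1, from 150100031 to 150108227, and shares no exon with another gene. It encodes the inducible cyclooxygenase. It had 253 reads at week-0 against 9 at week-3. Its level was 8.48 FPKM (7.47 to 9.59) at week-0 and 0.493 FPKM (0.226 to 0.936) at week-3, again without overlap of the intervals. The level was 17.2-fold lower at week-3, a log2 ratio of -4.10 (-5.25 to -3.16), and only 0.878% of the genes with at least 20 reads had a lower ratio. Ptgs2 stood above 65.6% of those genes by FPKM at week-0 and above 8.8% at week-3.

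Ptgs1 (ENSMUSG00000047250; plus strand of chromosome 2, 36230426 to 36252272) encodes the cyclooxygenase that most cells carry without induction. It had 173 reads at week-0 against 78 at week-3, or 4.59 FPKM (3.93 to 5.32) and 3.38 FPKM (2.67 to 4.22). The log2 ratio was -0.44 (-0.84 to -0.05), 1.36-fold lower and short of the 2-fold limit. The ratio of Ptgs2 to Ptgs1 in FPKM was 1.85 at week-0 (1.52 to 2.26) and 0.146 at week-3 (0.0643 to 0.291). The inducible form was thus the higher of the pair before BA expression, and at week-3 Ptgs1 stood 6.86 times above it (3.43 to 15.6). Comparisons of levels between genes rest on the exon lengths that the authors used. With the exon union of GENCODE M21 as the length, an alternative chosen after the values were seen, Ptgs2 was 1.24 times Ptgs1 at week-0 and Ptgs1 was 10.2 times Ptgs2 at week-3, and Alox5ap was 47.1 and 5.25 times Alox5.

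Hpgds (ENSMUSG00000029919; minus strand of chromosome 6, 65117293 to 65144908), the hematopoietic prostaglandin D synthase, had 76 reads at week-0 against 31 at week-3. Its level was 1.55 FPKM (1.22 to 1.94) and 1.04 FPKM (0.704 to 1.47), with overlapping intervals. The log2 ratio was -0.58 (-1.24 to 0.04) and did not reach 2-fold. Under TMM scaling its interval was -1.35 to -0.08, and under median-of-ratios scaling -1.33 to -0.05, so a ratio of 1 was then outside.

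Ptger4 (ENSMUSG00000039942) lies on the minus strand of chromosome 15, from 5206661 to 5244187. It had 458 reads at week-0, second among the 9 genes after Lta4h, and 77 reads at week-3. The level was 9.50 FPKM (8.65 to 10.4) at week-0 and 2.61 FPKM (2.06 to 3.26) at week-3, and these intervals did not overlap. That was 3.64-fold lower, a log2 ratio of -1.86 (-2.23 to -1.51), with 6.97% of the genes with at least 20 reads lower still. A stretch of 82 exon bases is shared with Ttc33 on the opposite strand, which had 136 and 109 reads, and 1015 bases lie opposite the pseudogene Gm15937.

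The counting intervals separated more of the genes than the fold limit did. With scaling by total reads, for Alox5, Alox5ap and Lta4h the interval of the ratio lay above 1, and for Ptgs1, Ptgs2 and Ptger4 below 1, which is 3 of 8 in each direction. Over all genes with at least 20 reads it lay above 1 for 34.0% and below 1 for 28.5%. The 4 genes of the leukotriene route had a median log2 ratio of 0.38, from -0.35 for Ltc4s to 3.47 for Alox5. Both cyclooxygenases, Hpgds and Ptger4 had ratios under 1, and the interval of Hpgds included 1. The 9 genes were chosen by name with results of these libraries known, so these counts are a description.

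**Figure D2:**
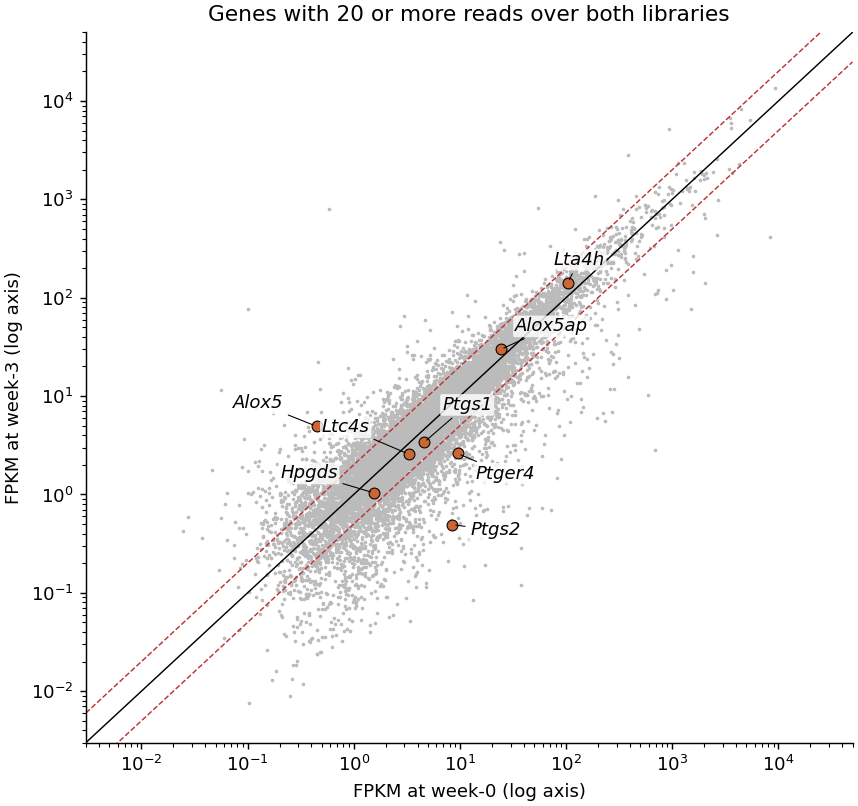
FPKM at week-3 against FPKM at week-0, both on log axes, for the 12082 genes with at least 20 reads in total and reads in both libraries (grey), with 8 of the 9 genes in orange. The solid line marks equal levels and the dashed lines a 2-fold difference. Alox5 lies above the upper dashed line, Ptger4 and Ptgs2 lie under the lower one, and the other 5 lie between them.

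The order of the levels changed around a stable top. At week-0 the order by FPKM was Lta4h, Alox5ap, Ptger4, Ptgs2, Ptgs1, Ltc4s, Hpgds, Alox5 and Alox12. Within it, Ptger4 and Ptgs2 did not differ beyond counting error (ratio 1.12, 0.958 to 1.31), nor did Ptgs1 and Ltc4s (ratio 1.40, 0.915 to 2.22). At week-3 the order was Lta4h, Alox5ap, Alox5, Ptgs1, Ptger4, Ltc4s, Hpgds, Ptgs2 and Alox12. Ptgs1 and Ptger4, Ptger4 and Ltc4s, and Hpgds and Ptgs2 were not separated by counting error there. With the exon union lengths Lta4h was 0.93 times Alox5ap at week-0 and 1.03 times at week-3, in place of 4.31 and 4.77 times, so the first place of Lta4h depends on the length used. By either length Alox5 ranked 8 at week-0 and 3 at week-3. The ratio between time points of 1 gene does not depend on the length.

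The 3 genes called here are shown with the 250 bases before their RefSeq starts on GRCm38.p6, because their levels differed the most. The stretches are chr6:116461179-116461428 on the minus strand for Alox5, chr1:150099781-150100030 on the plus strand for Ptgs2 and chr15:5244188-5244437 on the minus strand for Ptger4. Each is written 5′ to 3′ toward the start, and capitals mark matches, on either strand, to any of 8 motifs searched.
Alox5: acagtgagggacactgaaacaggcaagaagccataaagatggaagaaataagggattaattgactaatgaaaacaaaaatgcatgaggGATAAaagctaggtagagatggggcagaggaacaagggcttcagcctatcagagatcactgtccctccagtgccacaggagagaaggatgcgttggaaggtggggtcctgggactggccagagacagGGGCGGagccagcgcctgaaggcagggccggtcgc
Ptgs2: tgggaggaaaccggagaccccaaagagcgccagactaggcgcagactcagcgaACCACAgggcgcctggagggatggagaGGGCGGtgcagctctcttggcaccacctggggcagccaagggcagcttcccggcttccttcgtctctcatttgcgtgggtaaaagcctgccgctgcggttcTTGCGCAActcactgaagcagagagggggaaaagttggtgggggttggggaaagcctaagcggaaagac
Ptger4: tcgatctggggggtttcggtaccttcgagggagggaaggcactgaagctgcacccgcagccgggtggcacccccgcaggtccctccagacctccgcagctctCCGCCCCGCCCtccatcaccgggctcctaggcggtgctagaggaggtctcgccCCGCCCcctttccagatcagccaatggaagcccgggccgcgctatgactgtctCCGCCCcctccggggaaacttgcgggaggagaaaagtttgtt

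The motifs were searched in promoters of 300 bases, from 250 before to 50 after the start. They were the GC box GGGCGG, the cyclic AMP response element TGACGT, the E-box CACGTG, the AP-1 site TGANTCA, the C/EBP site TTGCNNAA, and the ETS core GGAAGT, the GATA core GATAA and the RUNX core TGTGGT. The GC box was in 35.7% of all 32851 promoters, and it was in all 3 of those shown. The promoter of Alox12, which is not shown, also had 3 matches, and those of Hpgds, Lta4h, Ltc4s and Ptgs1 had none. Alox5 had 1 GC box, 35 bases before the start, and 1 GATA match 162 bases before it, a motif held by 25.4% of promoters. Ptger4 had 4 GC box matches, all as the reverse complement, and the first pair overlap by 1 base. Ptgs2 had 1 GC box, 1 C/EBP match that reads the same on both strands, a motif held by 10.8% of promoters, and 1 RUNX match, a motif held by 16.8%.

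Just after the start of Ptgs2, in its annotated 5′ UTR, a cyclic AMP response element match and an E-box share 2 bases. They lie in chr1:150100035-150100064, shown here with both motifs in capitals.
Ptgs2: tcaccactACGTCACGTGgagtccgcttta
These motifs were held by 7.51% and 7.15% of promoters, and neither was found in the promoters of the other 7 genes searched. The AP-1 letters, held by 7.81% of promoters, were in none of the 8. The other RefSeq promoters searched were those of Alox12, Hpgds, Lta4h, Ltc4s and Ptgs1. A match is a description of the letters only.

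The 3′ UTR of Ptgs2 also held many copies of the pentamer ATTTA, which is the core of AU-rich elements, sequences known to shorten the life of a transcript. In GENCODE M21 its 3′ UTR of 2445 bases held 14 copies, and of the 10711 3′ UTRs of genes with at least 20 reads 2.17% held as many. It held 6 copies of the heptamer TATTTAT, and 0.215% held as many. The densest 30 bases lie at chr1:150105794-150105823 on the plus strand and hold 4 copies, in capitals.
Ptgs2: ccatATTTATTTATTTAtgtgaagaATTTA
Ptger4 held 5 copies in 1233 bases, a number reached by 19.7% of those 3′ UTRs, and Alox5 held 2, reached by 46.8%. None was found in the 3′ UTRs of Ptgs1, of 921 bases, and of Lta4h, of only 94 bases. Per kilobase Ptgs2 held 5.73 copies, Ptger4 4.06 and Alox5 3.12, and Alox5ap, which was not called, held 4.77. At least 1 copy was present in 66.9% of the 3′ UTRs, and longer ones hold more by length alone.

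The other genes of the route were read from a list of 50, which was drawn up with earlier results of these libraries known. Of these, 26 had at least 20 reads. Those called higher were 3 and those called lower 4, with 19 neither, shares near the 10.6% and 15.6% over all genes. The median log2 ratio of the 26 was 0.09, beside 0.07 for all genes. The 3 called higher were Mgst2, Ltb4r1 and Ptgr1. The 4 called lower were Cysltr2, Ptges, Tbxas1 and Slco2a1.

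For the release of arachidonic acid from membranes, 3 phospholipase A2 genes of 10 had enough reads. Pla2g4a, Pla2g12a and Pla2g6 had log2 ratios of 0.19, 0.53 and 0.73, and none was called. Pla2g4a, the cytosolic phospholipase A2 that feeds both routes, was at 3.15 FPKM at week-0 and 3.59 FPKM at week-3. The intervals of Pla2g12a and Pla2g6 reached past 2-fold, to 1.13 and 1.21.

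Among leukotriene enzymes and transporters, Mgst2, a microsomal glutathione transferase that can make leukotriene C4, had 66 reads at week-0 against 134 at week-3. Its level was 1.98 and 6.56 FPKM, a log2 ratio of 1.73 (1.30 to 2.18). The leukotriene B4 receptor gene Ltb4r1 had 139 and 201 reads, or 15.7 and 37.1 FPKM. Its log2 ratio was 1.24 (0.92 to 1.56), and it was 1 of the 3 highest of the 50 genes by mean FPKM. Cysltr2, a receptor of cysteinyl leukotrienes, was lower, with 30 reads at week-0 against 4 at week-3. Its level was 2.62 and 0.571 FPKM, a log2 ratio of -2.20 (-4.16 to -0.69). Ltb4r1 and Cysltr2 thus differed between time points in opposite directions. The 3 other leukotriene receptor genes, Ltb4r2, Cysltr1 and Oxgr1, did not have 20 reads. None of the 5 other lipoxygenase genes had 20 reads, and together they had 10 reads at week-0 against 14 at week-3.

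Among prostanoid synthases, Ptges3, a prostaglandin E synthase better known as the HSP90 co-chaperone p23, had the highest level. It was at 149 FPKM at week-0 and 275 FPKM at week-3, a log2 ratio of 0.88 (0.81 to 0.95), short of 2-fold. Cbr1, a carbonyl reductase that can convert prostaglandin E2, was at 27.6 and 23.7 FPKM. Ptges, the inducible prostaglandin E synthase that acts with Ptgs2, had 24 reads at week-0 against 6 at week-3, and its log2 ratio of -1.29 had an interval of -2.87 to 0.04. Tbxas1, thromboxane synthase, had 720 and 204 reads, or 10.6 and 4.89 FPKM, a log2 ratio of -1.11 (-1.34 to -0.88). A stretch of 144 of its exon bases lies opposite the antisense gene Gm42962, which had 38 and 9 reads. Of the prostaglandin E synthase genes, Ptges3 was thus the most abundant at both time points, and the inducible Ptges was near the read limit.

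For breakdown and transport, Ptgr1, a reductase that inactivates prostaglandins and leukotriene B4, had 99 reads at week-0 against 234 at week-3. Its level was 6.78 and 26.2 FPKM, a log2 ratio of 1.95 (1.61 to 2.30), the highest of the 26. Slco2a1, the prostaglandin uptake transporter, had 21 reads at week-0 against 0 at week-3. Set against the 3 reads that a count of 0 allows, it was 4.28-fold lower. Its counting interval allowed a log2 ratio as high as -1.67. None of the 4 other prostanoid receptor genes with enough reads was called. Ptger1 was at a log2 ratio of -0.86 (-1.31 to -0.42), a value that is uncertain without strand, Ptger3 was at 0.02, Ptger2 at 0.27 and the thromboxane receptor gene Tbxa2r at 0.81. Ptger4 was at -1.86.

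**Figure D3:**
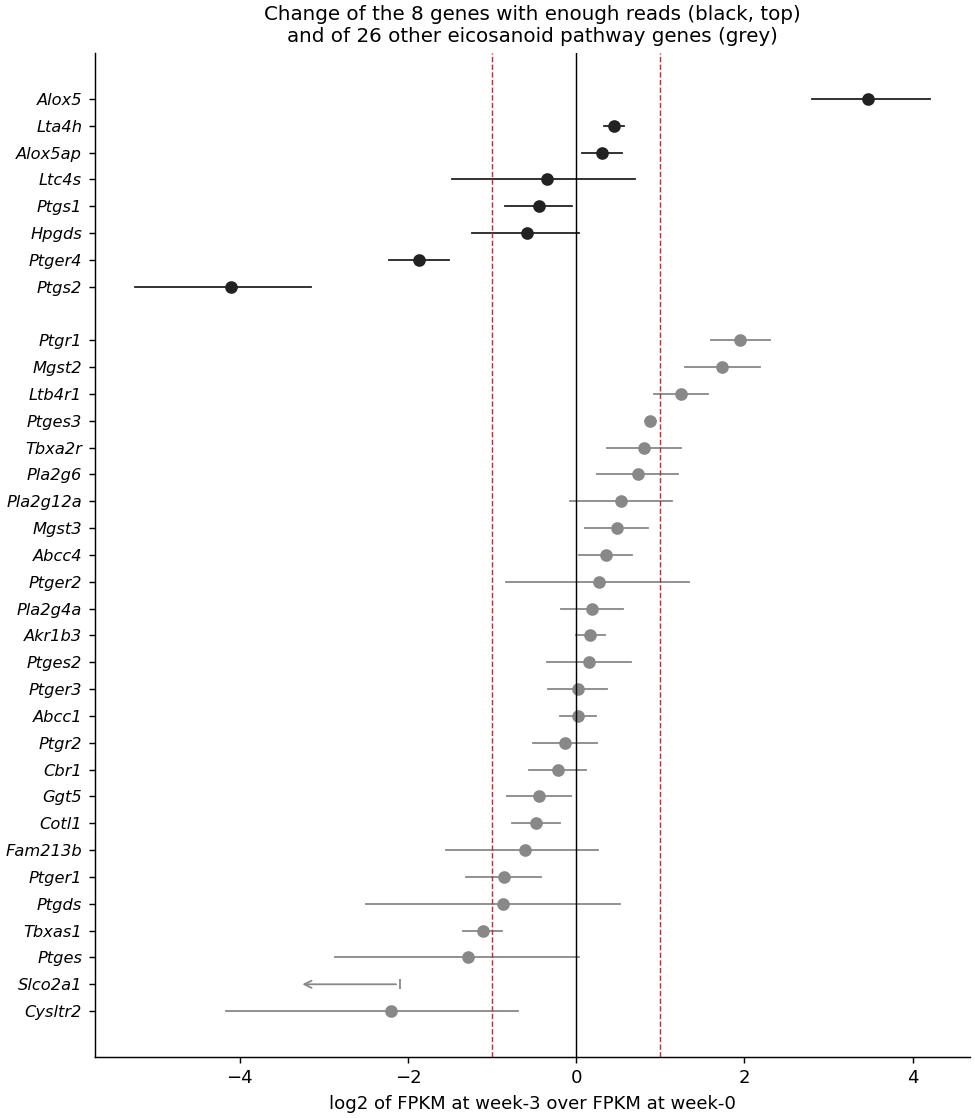
Log2 of the FPKM ratio of week-3 over week-0, with exact 95% counting intervals, for 8 of the 9 genes (black, top) and the 26 other pathway genes with at least 20 reads (grey). Dashed lines mark 2-fold and the arrow on Slco2a1 marks a bound set by 0 reads at week-3. Alox5 lies farthest to the right at 3.47 and Ptgs2 farthest to the left at -4.10.

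Markers of cell types known to carry these enzymes were also read. Mast cells and neutrophils are rich in 5-lipoxygenase. Of 12 mast cell markers 9 had at least 20 reads and all 9 were called higher at week-3. Their summed level over the 12 was 61.6 FPKM at week-0 and 3092 FPKM at week-3, led by the carboxypeptidase gene Cpa3 at week-0 (54.3 and 821 FPKM) and the tryptase gene Tpsb2 at week-3 (0 and 1295 FPKM). Mcpt1, Mcpt2, Mcpt4 and Tpsb2 were at 0 reads at week-0, and Mrgprb1 was at 0 in both libraries. Of 13 neutrophil markers 12 were called higher, with a sum of 2048 and 11090 FPKM, led by Elane at 933 and 5143 FPKM. The 1 not called was Cxcr2, at 1.46 and 2.59 FPKM. Granule genes such as Elane are also expressed by myeloid progenitors, so this list does not separate progenitors from mature neutrophils. Of 10 monocyte and macrophage markers 6 had enough reads and 3 were called higher, with a sum of 64.9 and 248 FPKM, led by Ly6c2 at 40.3 and 186 FPKM. The median log2 ratio was 5.66 for the mast cell list, 2.46 for the neutrophil list and 1.56 for the monocyte and macrophage list. That of Alox5 was 3.47. The part of these cells in the level of Alox5 was not tested. Hpgds and Ltc4s, which mast cells are also known to express, had log2 ratios of -0.58 and -0.35.

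Basophils and eosinophils make leukotriene C4. Basophil markers were mixed, with 2 of 3 called higher and 1 lower, a sum of 232 and 239 FPKM, led by Prss34 at week-0 (168 and 80.4 FPKM) and Mcpt8 at week-3 (63.7 and 156 FPKM). Of 5 eosinophil markers 4 had enough reads, 1 was higher and 2 lower, with a sum of 310 and 162 FPKM, led by Prg2 at 291 and 155 FPKM, and Ccr3 was at 0 reads in both. For platelets, which carry Alox12, Ptgs1 and Tbxas1, 9 of 10 markers had enough reads, 2 were called lower and none higher, with a sum of 63.6 and 56.2 FPKM. Under TMM and median-of-ratios scaling 4 were called lower. The highest were Gp9 at week-0 (18.9 and 11.7 FPKM) and Itga2b at week-3 (10.7 and 20.4 FPKM). The part of these cells in the levels of Alox12, Ltc4s and Ptgs1 was not tested.

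Ptgs2 is known as an early-response gene, and a list of 19 other immediate-early genes was read beside it. Of these 17 were called lower at week-3 and none higher, with a median log2 ratio of -2.21 and a sum of 16580 and 4858 FPKM. The highest at either time point was Zfp36, which encodes a protein that binds AU-rich elements, at 2695 FPKM at week-0 and 977 FPKM at week-3. Egr3 was at 0 reads at week-3. Atf3 and Nr4a3, the genes of the list with the lowest ratios and named after their values were seen, had log2 ratios of -5.85 and -5.88, and that of Ptgs2 was -4.10. These genes respond to handling and dissociation of cells as well as to growth signals. The time points were collected as 1 library each, so handling and time cannot be told apart for Ptgs2.

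Other lists differed too. All 7 erythroid markers were called lower, with a sum of 832 and 125 FPKM, led by Hbb-bs at week-0 (275 and 21.2 FPKM) and Car2 at week-3 (227 and 83.3 FPKM). Of 5 plasma cell markers 4 were called lower, with a sum of 314 and 55.6 FPKM. They were led by Jchain at week-0 (221 and 6.76 FPKM) and Xbp1 at week-3 (50.8 and 47.8 FPKM). Xbp1 was the 1 not called, and it held most of the sum at week-3. Of 8 B cell markers 3 had enough reads and 1 was called lower, with a sum of 38.2 and 28.4 FPKM, led by Cd79b at 23.5 and 26.4 FPKM. Of 7 T and NK cell markers only Nkg7, which myeloid progenitors also express, had enough reads, at 279 and 422 FPKM. Of 5 dendritic cell markers 1, Siglech, had enough reads and was called lower (0.410 and 0.0957 FPKM), and Xcr1 was the highest at week-3 (0.283 and 0.404 FPKM). The 12 stem and progenitor markers had a sum of 363 and 231 FPKM with 1 called higher and 3 lower. They were led by Flt3 at week-0 (157 and 38.9 FPKM) and Cd48 at week-3 (73.3 and 102 FPKM). The part of these lists in the lower levels of Ptgs2 and Ptger4 was not tested.

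**Figure D4:**
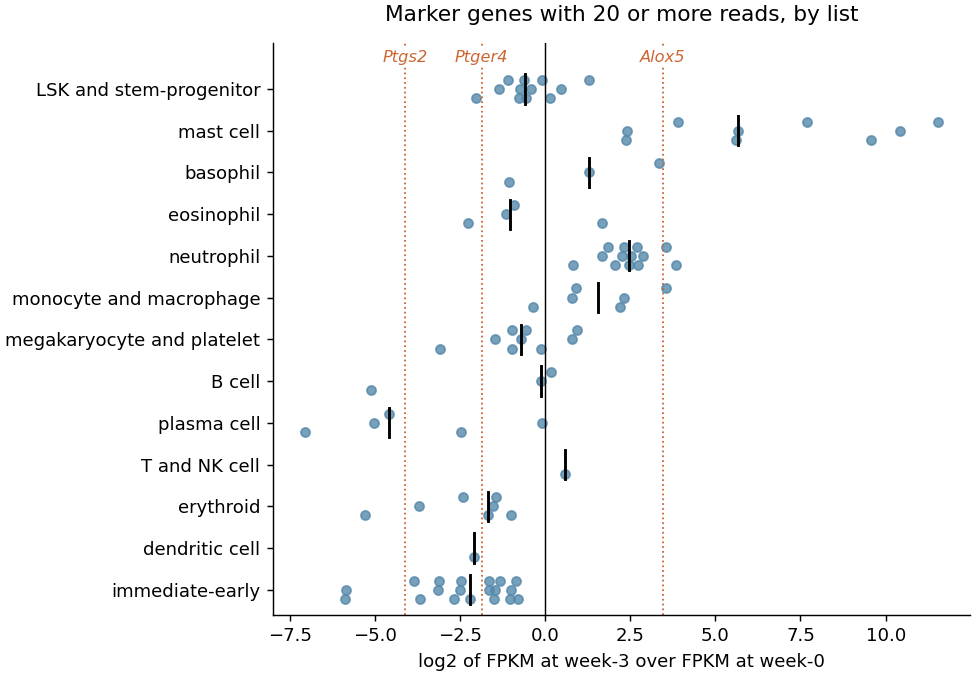
Log2 of the FPKM ratio of week-3 over week-0 for each marker gene with at least 20 reads, by list, with points offset vertically for legibility and a black bar at the median of each list; Mcpt4, Tpsb2 and Egr3, at 0 reads in 1 library, are drawn at the bound set by 3 reads. Dotted lines give Alox5 (3.47), Ptger4 (-1.86) and Ptgs2 (-4.10). Mast cell and neutrophil points lie to the right of 0, and erythroid and immediate-early points lie to the left.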

How the data were processed

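RNA-seq of sorted BM LSKs was read at week-0 and week-3, with 1 library of 3 mixed mice each. For library preparation the authors used a SMARTer Ultra Low Input kit, and paired ends were read on a HiSeq 2500. Trimmed reads were aligned to GRCm38 (mm10) by TopHat2 2.0.9. The authors deposited counts, whole reads per gene, and FPKM, scaled by exon length and total reads. Reads per FPKM differed between the libraries by a median factor of 1.635, the ratio of their totals. The counting tool and annotation release are not given in the sources used here. Further columns of the tables hold annotation terms, of which only the KEGG terms were used.

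The tables were joined by gene identifier. No pseudocount was added to the FPKM. Intervals are exact Poisson intervals for levels and exact Clopper-Pearson intervals for ratios, taken from how a gene's reads divide between the libraries. They were computed in Python 3.11.15 with SciPy 1.17.1, NumPy 2.4.6 and pandas 2.3.3. The ratio intervals were tried on counts simulated with counting error alone. That is the error they assume, so the trial cannot test them for any other spread. Reads amplified by PCR are not independent molecules. Alternative scaling used TMM of edgeR 4.0.16 and the size factors of DESeq2 1.42.0 in R 4.3.3. Figures used matplotlib 3.10.9. Promoters came from RefSeq on GRCm38.p6, where 8 of 9 genes matched, and exons and 3′ UTRs from GENCODE M21, with the coding transcript of longest coding sequence and 3′ UTRs of at least 50 bases. Of the 8 motifs, each was searched on both strands.

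All 9 genes are named. Of the pathway list, genes past 2-fold and the 3 with the highest mean FPKM are named, and others where a count was small. Of each marker list, the gene with the highest FPKM in either library is named. The genes, lists and motifs were chosen with earlier results of these data known.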

Additional observations from a re-analysis of the deposited data

How the results depend on the processing

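No paired analysis was possible because each time point had 1 library, and for the same reason none could be left out. TMM moved every log2 ratio by -0.11 and median of ratios by -0.09. Of 24 changes of the 8 genes recomputed under these and under totals without the marker genes (chosen after seeing the data), none changed sign or its side of 2-fold, and all stayed within the counting interval. With 0.1 or 1 added to the FPKM 14 of 16 did. With 1 added, Alox5 was at 2.04 and Ptgs2 at -2.67, since the addition shrinks ratios of low genes. With limits of 1.5 and 0.67, 2894 genes were higher and 3024 lower, and 6 and 7 of the pathway list. With at least 1 read in both libraries 2191 genes were higher, and 7 of the pathway list. With at least 100 reads in total, 663 genes were higher and 1004 lower, and 1 of the pathway list was lower. The other counts stayed within 1.5 times. At this depth and with scaling by total reads, the intervals of Ltc4s, Hpgds and Ptges included no difference, and Alox12 gave no ratio. Under TMM and median-of-ratios scaling a ratio of 1 lay outside the interval of Hpgds and inside that of Alox5ap.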

Other observations

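The deposited KEGG term for arachidonic acid metabolism holds 56 genes beyond those described above, and it was read after the values of the other genes were known. Only 10 of the 56 had at least 20 reads over both libraries, of which 1 was called higher and 3 lower, with a median log2 ratio of -0.74. Over all genes 10.6% were called higher and 15.6% lower, with a median of 0.07. Under TMM and under median-of-ratios scaling, none of the 10 was called higher and 4 were called lower. The one higher was Cyp4f18, a cytochrome P450 that oxidises leukotriene B4, with 53 reads at week-0 against 66 at week-3, or 3.51 and 7.15 FPKM, a log2 ratio of 1.03 (0.48 to 1.58), which was 0.91 and 0.94 under those scalings and so short of 2-fold. The lower ones were Cyp2c55, Gpx7 and Cbr3. Cyp2c55, an epoxygenase-family cytochrome P450, had 26 reads and 0. Against the 3 reads that a count of 0 allows, Cyp2c55 was 5.3-fold lower. Its counting interval allowed a log2 ratio as high as -2.00. Gpx7, a peroxidase, had 54 and 8 reads, a log2 ratio of -2.05 (-3.33 to -0.97). Cbr3, a carbonyl reductase, had 19 and 5 reads, and its interval of -2.99 to 0.25 included no difference. The highest level among the 56 was that of Gpx1, the main cellular glutathione peroxidase, at 294 and 442 FPKM, a log2 ratio of 0.59 (0.54 to 0.64).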
